A study of Mus musculus with 3 samples.

Results

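The genes described here are 10 transcription factors of AP-1 and of the early stress response, out of 21911 protein-coding genes with unique symbols in the annotation. They were named as a list: the Fos members Fos, Fosb, Fosl1 and Fosl2, the Jun members Jun, Junb and Jund, and Atf3, Egr1 and Ets2. For each gene and library, the position and number of peaks were read from 20 kb before its outer start site to 20 kb after its end, which covered 522.2 kb of the mouse genome (GRCm38) in all. Open chromatin of hair follicle stem cells (HFSCs) was mapped by Omni-ATAC-seq, which relies on the Tn5 transposase cutting accessible DNA and tagging it with adapters. The cells came from dorsal skin of mice aged 6 months whose follicles were at rest (telogen), and were sorted as CD34+ CD49f+ Sca-1- cells. The series held 3 libraries, 1 of wild-type C57BL/6J mice (Msx2-WT, called WT from here on) and 2 of homozygous Msx2-knockout mice (Msx2-KO replicates 1 and 2, called KO1 and KO2), which carry a neo cassette inserted upstream of exon 2 of the homeobox gene Msx2. No treatment is named in the labels of either group. Whether a library came from 1 mouse or from pooled mice is not stated. Inside the KO1 and KO2 lists the peaks are named with cKO, a term that the labels do not use for these mice. Peak names of the KO1 list also carry another library number than its label. The grouping here is that of the labels, and which name is right was not tested.

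AP-1 is a dimer of basic leucine zipper proteins. Fos proteins need a Jun partner to bind DNA, while Jun proteins can also pair with each other or with proteins such as Atf3, and the pairs bind the element TGAGTCA or the related TGACGTCA. Fos, Fosb, Jun, Junb, Atf3 and Egr1 are immediate early genes, whose transcription is switched on within minutes by growth factors, wounding and stress through kinases that act on factors already bound at their promoters. Serum response factor is the best known of these and binds the CArG box. In keratinocytes, AP-1 takes part in proliferation, wound repair and the control of differentiation genes.

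The genes lie apart on 9 chromosomes, except that Junb and Jund share chromosome 8. Among the Fos members these are Fos (chr12:85473890-85477273, plus strand), Fosb (chr7:19302696-19310051, minus strand), Fosl1 (chr19:5447547-5455946, plus strand) and Fosl2 (chr5:32135801-32157842, plus strand). The Jun members are Jun (chr4:95049034-95052222, minus strand), Junb (chr8:84974484-84978718, minus strand) and Jund (chr8:70698949-70700616, plus strand). The others are Atf3 (chr1:191170296-191218039, minus strand), Ets2 (chr16:95702075-95721051, plus strand) and Egr1 on chromosome 18. Fosb has 3 annotated start sites, and Atf3 and Egr1 have 2 each.

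Genotype and batch followed the same split in the labels and cannot be told apart, and since WT had 1 library, the genotypes were compared without a test. Depth in WT exceeded that of KO1 by a factor of 3.65 and that of KO2 by 2.2, and the weakest summits kept at a q-value of 0.01 had 9 tags in WT, 5 in KO1 and 6 in KO2. Msx2 itself had a promoter peak in every library, with 15, 9 and 16 tags, and this promoter lies outside the altered part of the gene, so it gave no check of the labels. Among promoters of the marker genes, 6, 5 and 7 of 8 HFSC genes had a peak in WT, KO1 and KO2, beside 47%, 37.8% and 53.5% of all genes. Nfatc1 had none in any library, and Lgr5 had one in both KO libraries and not in WT. None of 3 leukocyte and 2 endothelial genes had a promoter peak, both melanocyte genes (Dct and Pmel) had one in all 3 libraries, both fibroblast genes (Col1a1 and Pdgfra) had one in WT and KO2, and 2 of 3 epidermal genes (Ly6a, which encodes Sca-1, with 12 tags, and Krt10 with 10) had one in WT alone. Of all genes, 35.1% had a promoter peak in all 3 libraries, 2.11% in WT alone and 2.3% in both KO libraries alone. The part of other cells in the values below was not tested.

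The sequences below carry the elements around which the results on peak position turn. The first group holds the CArG box, in capitals, at or near peaks of Fos, Fosb, Junb and Ets2. Coordinates are in GRCm38, the sequence is from the RefSeq copy of that assembly, and each line is written 5′ to 3′ on the strand of the gene.
Fos promoter, chr12:85473546-85473626, plus strand: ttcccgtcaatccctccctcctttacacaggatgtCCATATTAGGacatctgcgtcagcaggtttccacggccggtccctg
Fos 12.2 kb downstream of the start, chr12:85486079-85486159, plus strand: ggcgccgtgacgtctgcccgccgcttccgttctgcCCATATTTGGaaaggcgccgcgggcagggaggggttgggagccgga
Fosb promoter, chr7:19310273-19310353, minus strand: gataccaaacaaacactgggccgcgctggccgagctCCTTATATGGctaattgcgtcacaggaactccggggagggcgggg
Junb 2.1 kb downstream of the start, chr8:84976589-84976669, minus strand: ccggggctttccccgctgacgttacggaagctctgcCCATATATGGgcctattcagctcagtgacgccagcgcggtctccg
Ets2 27 kb downstream of the start, chr16:95729030-95729110, plus strand: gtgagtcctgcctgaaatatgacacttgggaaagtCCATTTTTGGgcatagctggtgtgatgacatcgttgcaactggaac

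The second group holds the AP-1 element TGAGTCA, or TGACTCA where the element lies on the other strand, within 150 bases of a summit around Fosb, Fosl1, Jund and Atf3, again with the element in capitals. The promoter peak of Fosl2, inside its first exon, and the region 5.5 kb after the start of Egr1, 9 bases from its summit, also held one and are not shown.
Fosb 7.0 kb upstream, chr7:19316963-19317043, minus strand: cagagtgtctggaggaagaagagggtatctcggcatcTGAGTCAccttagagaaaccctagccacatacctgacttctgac
Fosl1 17.6 kb upstream, chr19:5430013-5430093, plus strand: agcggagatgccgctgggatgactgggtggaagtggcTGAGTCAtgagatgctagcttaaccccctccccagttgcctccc
Jund 19.3 kb upstream, chr8:70679608-70679688, plus strand: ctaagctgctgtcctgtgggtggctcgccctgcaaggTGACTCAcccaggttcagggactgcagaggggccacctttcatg
Jund 16.5 kb upstream, chr8:70682294-70682374, plus strand: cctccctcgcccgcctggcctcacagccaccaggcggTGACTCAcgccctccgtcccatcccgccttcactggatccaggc
Jund 4.0 kb downstream of the start, chr8:70702920-70703000, plus strand: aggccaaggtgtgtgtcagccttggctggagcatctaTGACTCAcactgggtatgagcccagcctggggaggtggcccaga
Atf3 24.2 kb downstream of the outer start, chr1:191193763-191193843, minus strand: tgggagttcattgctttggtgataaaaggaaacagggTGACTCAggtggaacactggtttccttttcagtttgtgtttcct

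The promoters of Jun and Jund are shown over the 300 bases before the start site. That of Jun holds TGACATCA, a variant of the AP-1 element known from the Jun promoter, and that of Jund holds TGACGTCA, both in capitals.
Jun, chr4:95052223-95052522, minus strand: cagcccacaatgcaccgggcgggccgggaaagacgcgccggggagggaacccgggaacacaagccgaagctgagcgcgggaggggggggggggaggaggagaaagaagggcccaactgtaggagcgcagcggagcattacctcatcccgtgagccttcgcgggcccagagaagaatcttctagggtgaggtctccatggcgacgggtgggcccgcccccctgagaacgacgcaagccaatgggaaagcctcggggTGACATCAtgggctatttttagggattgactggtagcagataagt
Jund, chr8:70698649-70698948, plus strand: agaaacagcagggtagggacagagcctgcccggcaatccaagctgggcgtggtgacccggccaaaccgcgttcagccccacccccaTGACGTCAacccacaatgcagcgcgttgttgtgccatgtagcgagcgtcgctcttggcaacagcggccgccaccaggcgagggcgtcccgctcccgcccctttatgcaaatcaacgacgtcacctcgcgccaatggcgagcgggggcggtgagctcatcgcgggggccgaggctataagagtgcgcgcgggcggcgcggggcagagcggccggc

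The windows of the 10 genes held 44 peaks in WT, 25 in KO1 and 36 in KO2. Thinned to the depth of KO1 in a single random draw, the counts were 23, 25 and 28, so WT went from the highest to the lowest of the libraries. The spread between draws was not measured, so the order after thinning is not settled. A peak is an interval with a summit at a −log10 q above 2. Every member had at least 1 peak in every library, and the share of all genes with at least 1 peak in such a window was 70.6% in WT, 60.7% in KO1 and 75% in KO2. The median member had 4, 2 and 3.5 peaks, beside a median of 1, 1 and 2 over all genes. Jund and Fosb had the most peaks in WT, with 7 each, and Junb had the most in KO1, with 5, and shared that number with Atf3 in KO2. The largest difference between libraries was at Jund, which had 7 peaks in WT and 2 in each KO library. Egr1 had 3 in every library. The WT count was above that of both KO libraries at Fosb, Junb, Jund, Atf3 and Ets2, and in no member was it below both. Part of this came from how intervals were split. In the promoter regions of Atf3, Junb and Jund, WT had 3, 2 and 2 separate peaks where each KO library had 1. With overlapping peaks merged into regions, WT was not above both KO libraries at Atf3 or Junb.

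**Figure D1:**
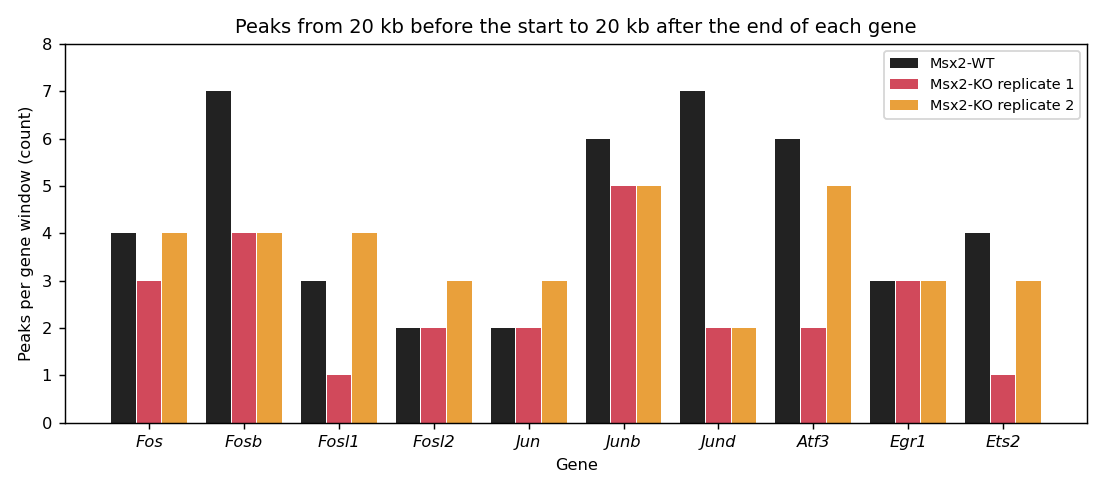
Number of peaks (vertical axis, count) in the window of each gene (horizontal axis), with 1 bar for each library. Jund stands at 7 in WT against 2 and 2 in the KO libraries, and Egr1 at 3 in all of them.

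The Fos and Jun members were set side by side. The 4 Fos members held 16 peaks in WT, 10 in KO1 and 15 in KO2, which is 0.795, 0.497 and 0.746 per 10 kb. The 3 Jun members held 15, 9 and 10, which is 1.16, 0.697 and 0.775 per 10 kb. The density was higher around the Jun members in each library at these settings. It includes peaks at the start sites of other genes in the windows of Junb, Jund and Fosl1, named below. No density was computed without those peaks, so it describes the windows and not the genes alone. It was higher around the Fos members in WT at a −log10 q of at least 5 and with lists of equal length (12 Fos and 7 Jun peaks in both), and in KO2 with every deposited peak (24 and 13) and in windows of 50 kb (31 and 19). The genes differed more within a family than the families from each other: Jun had 2, 2 and 3 peaks while Junb had 6, 5 and 5, and Fosl2 had 2, 2 and 3 while Fosb had 7, 4 and 4. Genes are not replicates, and no test was made. Around Atf3, Egr1 and Ets2 the density was 0.678, 0.313 and 0.573 per 10 kb.

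Several windows hold other genes. The window of Junb includes the start sites of Hook2, Prdx2 and Rnaseh2a, that of Fosl1 those of Ccdc85b and Efemp2, and that of Jund those of Iqcn and Gm3336. The antisense gene Junos starts beside the Jun promoter and Gm11175 beside that of Jund, and ATAC-seq does not tell strands apart. No start site of another protein-coding gene lay at a peak around Fos, Fosb, Fosl2, Jun, Atf3, Egr1 or Ets2.

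A promoter peak, taken as a summit no more than 1500 bases from where a protein-coding transcript starts, was present for 10 of 10 members in WT, 9 in KO1 and 10 in KO2. Over all protein-coding genes the share with a promoter peak was 47% in WT, 37.8% in KO1 and 53.5% in KO2, and 35.1% of genes had one in all 3 libraries. The exception was Fosl1, for which no summit was listed in KO1, the shallowest library. A promoter peak in WT and KO2 without KO1 was found at 9.59% of genes. No member had a promoter peak in WT alone or in both KO libraries alone, a state found at 2.3% of genes with the peak in both KO libraries and 2.11% with it in WT alone.

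Levels are given as the tag number at the highest promoter summit, counted over a window of the same size at every gene, with its 95% Poisson interval for counting error. Fos, the founding partner of Jun in AP-1, had 37 tags in WT (26.1 to 51.0), 13 in KO1 (6.92 to 22.2) and 41 in KO2 (29.4 to 55.6), with the summit at bases -231, -185 and -100 from the start site. Its CArG box at bases -309 to -300, shown above, lay inside the promoter peak of all 3 libraries. Fosb, which encodes a second early Fos protein, had 30 tags (20.2 to 42.8), 17 (9.90 to 27.2) and 34 (23.6 to 47.5). The position of that highest summit differed between libraries. It lay at base -296 from the outer start in WT, near the CArG box, and at bases 1558 and 1563 in KO1 and KO2. Peaks were nonetheless present at both places in every library, with 30, 10 and 22 tags at the outer start and 24, 17 and 34 inside the gene.

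Fosl1 (Fra-1), a Fos protein linked to motility in epithelial cells, had the fewest promoter tags of the list: 10 in WT (4.80 to 18.4), no summit in KO1 and 6 in KO2 (2.20 to 13.1). Only 3.81% of promoter peaks in WT had fewer tags. Fosl2 (Fra-2), the other late Fos protein, had 52 tags (38.8 to 68.2), 17 (9.90 to 27.2) and 41 (29.4 to 55.6). Fosl1 was thus the lowest Fos member in both libraries where it had a peak.

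Jun, which encodes the main partner of the Fos proteins, had the highest promoter of the list in every library, with 80 tags in WT (63.4 to 99.6), 50 in KO1 (37.1 to 65.9) and 110 in KO2 (90.4 to 132.6). Among all promoter peaks of the same library, 98.5%, 97.5% and 99.7% had fewer tags. The Jun peak was also wide, at 1535, 1720 and 2337 bases, and 98.98%, 97.65% and 98.79% of promoter peaks were narrower. Jund, the Jun protein that resting cells tend to hold, had 47 tags (34.5 to 62.5), 30 (20.2 to 42.8) and 79 (62.6 to 98.5), with its summit at bases -103, -100 and -30. Junb, an early gene whose product often opposes that of Jun, had 37 tags (26.1 to 51.0), 17 (9.90 to 27.2) and 48 (35.4 to 63.6). In WT its highest summit lay at base -37 in a peak 360 bases wide. In both KO libraries it lay farther upstream, at bases -1137 and -1284, in single peaks of 1906 and 2528 bases, whereas WT had 2 peaks in this region. Both of these KO peaks also covered the Junb start site. The tag numbers of Junb thus set different summits side by side. Promoter peaks were wider in the KO libraries in general, with a median of 673 bases in WT, 836 in KO1 and 1059 in KO2.

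Atf3, a stress-induced partner of Jun, had its promoter peak at an internal start. It had 66 tags in WT (51.0 to 84.0), 18 in KO1 (10.7 to 28.5) and 46 in KO2 (33.7 to 61.4), and all of these summits lay about 34.5 kb inside the gene at the downstream start. No peak lay at the outer start, whose nearest upstream region was 6.6 kb away. The Atf3 promoter peak was 3945 bases wide in KO2 and 2251 in KO1, where WT had 3 separate peaks. Here too the wider promoter peaks of the KO libraries in general apply. Egr1, a zinc finger factor and classic target of serum response factor on chromosome 18, had 46 tags (33.7 to 61.4), 26 (17.0 to 38.1) and 99 (80.5 to 120.5). Ets2, an ETS factor activated through the MAP kinases, had 44 tags (32.0 to 59.1), 16 (9.15 to 26.0) and 32 (21.9 to 45.2).

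Ordered by tags within WT the genes ran Jun, Atf3, Fosl2, Jund, Egr1, Ets2, Fos with Junb, Fosb and Fosl1, and the intervals of neighbours overlapped at every step but the last, between Fosb and Fosl1. The order in KO1 was led by Jun, Jund and Egr1 and ended with Ets2 and Fos. In KO2 it was led by Jun, Egr1 and Jund and ended with Ets2 and Fosl1, and again only the intervals of that last pair of neighbours lay apart. The 3 Jun members had a median percentile among promoters of 86.1 in WT, 88 in KO1 and 98 in KO2. That of the Fos members with a peak was 68.4, 64.6 and 77.6. These percentiles rank tags. By the deposited fold enrichment the median of the Jun members was instead below that of the Fos members in WT and KO1, and above it in KO2.

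Between libraries the comparison depended on the scale. Over the background of the library, the promoter level was lowest in WT in 8 of the 9 members with a peak in all 3 libraries, the exception being Atf3 with 37.97 in WT, 37.82 in KO1 and 58.21 in KO2. The same held for 87.1% of the 7693 promoters with a peak in all libraries, and the median promoter stood at 13.8, 27.3 and 26.6 times the background. Each level was therefore also divided by the median of its library over 13111 regions shared by all 3. On that scale 4 members were lowest in WT and 3 were highest, beside 40.8% and 36.4% of promoters in general.

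The members lowest in WT on the second scale were Fosb, Jun, Jund and Egr1, and those highest were Fosl2, Atf3 and Ets2. The value of Fosb sets different summits side by side, and at its outer start WT was instead the highest, with 1.30 against 0.909 in KO1 and 0.917 in KO2. Egr1 stood at 2.0 times the shared median in WT (1.46 to 2.67), 2.36 in KO1 (1.54 to 3.46) and 4.13 in KO2 (3.35 to 5.02). The interval of WT overlapped that of KO1 and not that of KO2. These Egr1 summits lay at bases 1258, 635 and 999 from the outer start in WT, KO1 and KO2. The Egr1 value thus also sets different summits side by side. Atf3 stood at 2.87 (2.22 to 3.65), 1.64 (0.970 to 2.59) and 1.92 (1.40 to 2.56), with overlapping intervals. Jun stood at 3.48 (2.76 to 4.33), 4.55 (3.37 to 5.99) and 4.58 (3.77 to 5.52), which overlapped as well. In none of the 9 members did the counting interval of WT lie apart from those of both KO libraries on this scale.

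**Figure D2:**
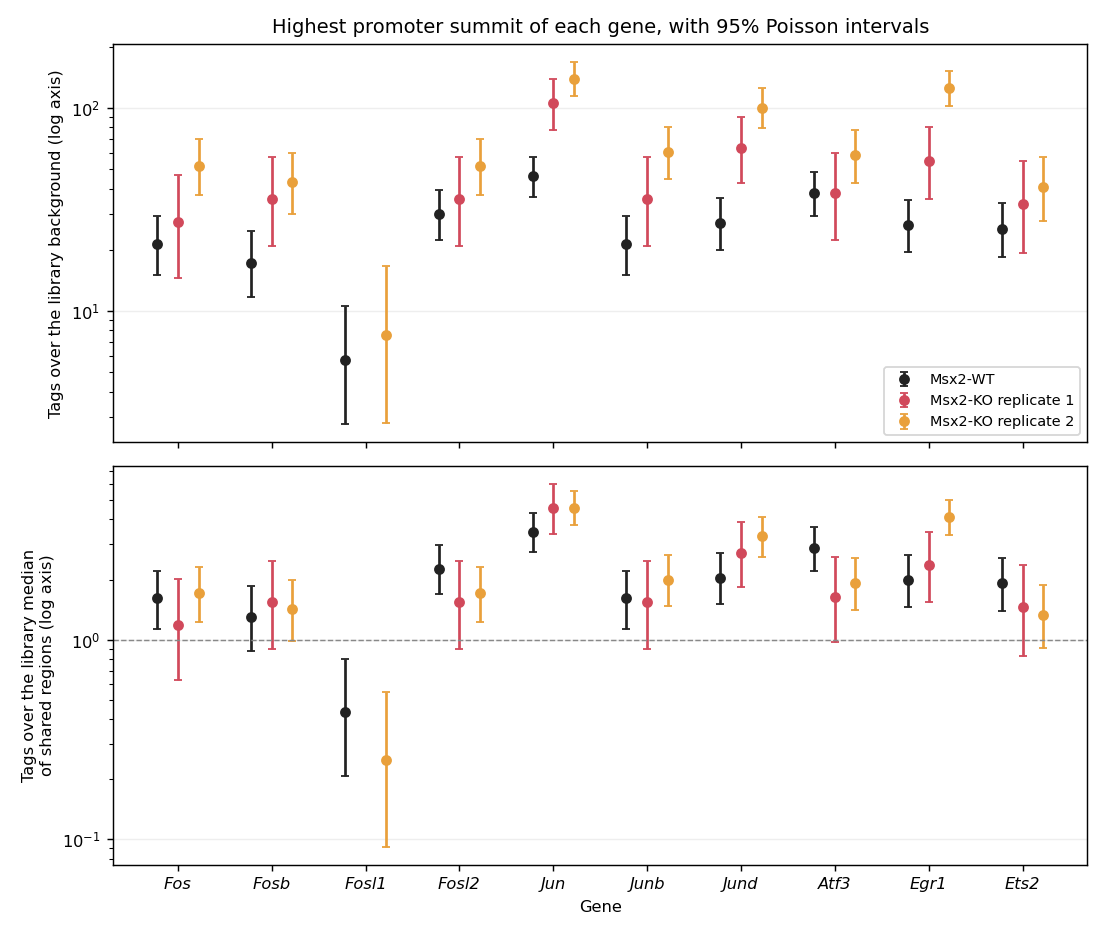
Tags at the highest promoter summit of each gene (horizontal axis) over the library background (upper panel) and over the median of shared regions (lower panel, dashed line at 1), both on log axes, with 95% Poisson intervals and 1 point per library. WT lies lowest for nearly every gene in the upper panel and among the others in the lower one, and Fosl1 lies below the dashed line where it has a peak.

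Merging peaks that shared at least 1 base gave 48 regions in the 10 windows. Of these, 21 (43.8%, 95% Wilson interval 30.7 to 57.7) were held by all 3 libraries, beside 27.6% of 47562 regions over the genome. Another 9 (18.8%) were held by WT alone, beside 18.7%, and 9 by WT and KO2, beside 14.4%. KO2 alone held 5 (10.4%, 4.53 to 22.2), beside 28%. Both KO libraries without WT shared 1 region (2.08%, 0.369 to 10.9), beside 7.66%. The remainder were 2 regions of KO1 alone, beside 2.85%, and 1 of WT with KO1, beside 0.709%. Regions near start sites were more often shared. Of the 18 within 1500 bases of any protein-coding start, all 3 libraries held 12 (66.7%, 43.7 to 83.7), beside 58.4% over the genome. Of the 30 others they held 9 (30%, 16.7 to 47.9), beside 17.5%. Both genome shares lay inside these intervals. Regions near start sites made up 18 of 48 around the members and 11729 of 47562 over the genome, so the pooled shares differ in place as well.

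**Figure D3:**
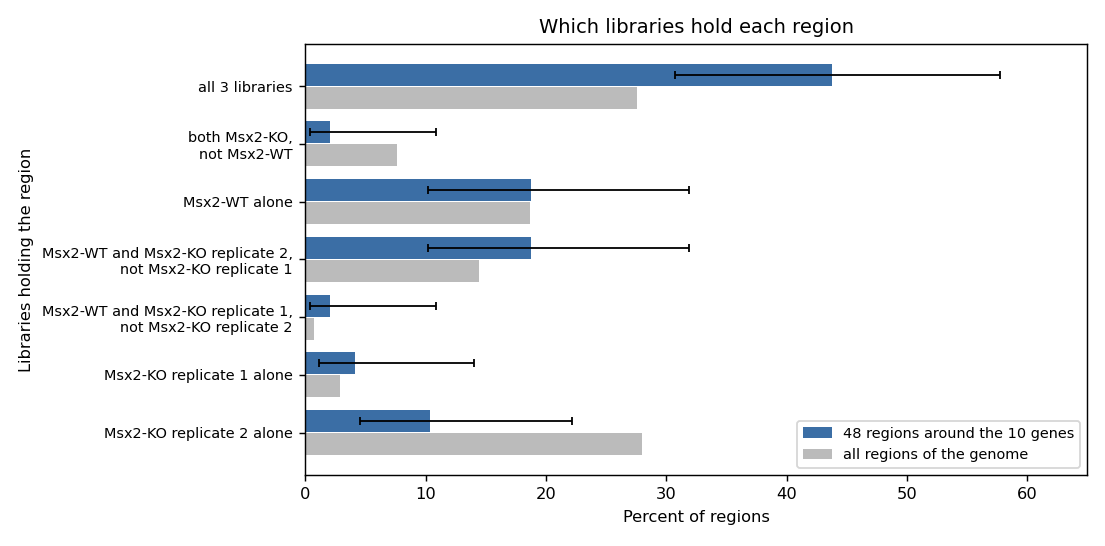
Percent of regions (horizontal axis) held by each set of libraries (vertical axis), for the 48 regions around the 10 genes (blue, with 95% Wilson intervals) and for all regions of the genome (grey). The blue bar is longer than the grey one for regions of all 3 libraries, 43.8% against 27.6%, and shorter for regions of KO2 alone, 10.4% against 28%. Blue and grey bars are not matched for distance from start sites.

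Several regions away from the promoters were held by all 3 libraries. The region 18.5 kb upstream of Fos (chr12:85454986-85455771, intergenic) had 58 tags in WT, 16 in KO1 and 49 in KO2, above the Fos promoter in each library. A second, 12.2 kb downstream of the Fos start and past the end of the gene (chr12:85485721-85486767), had 18, 12 and 29 tags, below the promoter in each library, and holds the CArG box CCATATTTGG 9 bases from its summit. Junb had 47, 20 and 37 tags at 2.1 kb after its start (chr8:84975883-84977081), where CCATATATGG lay 5 bases from the summit. The promoter of its neighbour Hook2, 11.9 kb upstream, had 45, 33 and 56 tags, and that of Rnaseh2a, 12.6 kb after the Junb start, had 33, 12 and 17.

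Other members had such regions too. Fosb had one 10.0 kb upstream with 20, 8 and 28 tags, Fosl1 one 17.6 kb upstream with 21, 6 and 9, and Fosl2 one 13.8 kb upstream with 22, 9 and 21. Egr1 had one 9.7 kb upstream with 9, 5 and 14 tags and one 5.5 kb after its start with 24, 18 and 29. Atf3 had one 66.1 kb after its outer start, past the end of the gene, with 11, 8 and 7. Jun, Jund and Ets2 had no distal region that all 3 libraries held, and every region of Egr1 was held by all 3. The 201 bases around the Fos summit at 18.5 kb are shown as the distal region with the most tags in WT. No element searched for was in it, so it carries no capitals.
Fos 18.5 kb upstream, chr12:85455302-85455502, plus strand: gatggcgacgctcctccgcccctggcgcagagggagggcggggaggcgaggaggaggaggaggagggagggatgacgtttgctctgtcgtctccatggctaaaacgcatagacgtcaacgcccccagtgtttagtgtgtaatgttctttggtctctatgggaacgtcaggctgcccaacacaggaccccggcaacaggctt

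**Figure D4:**
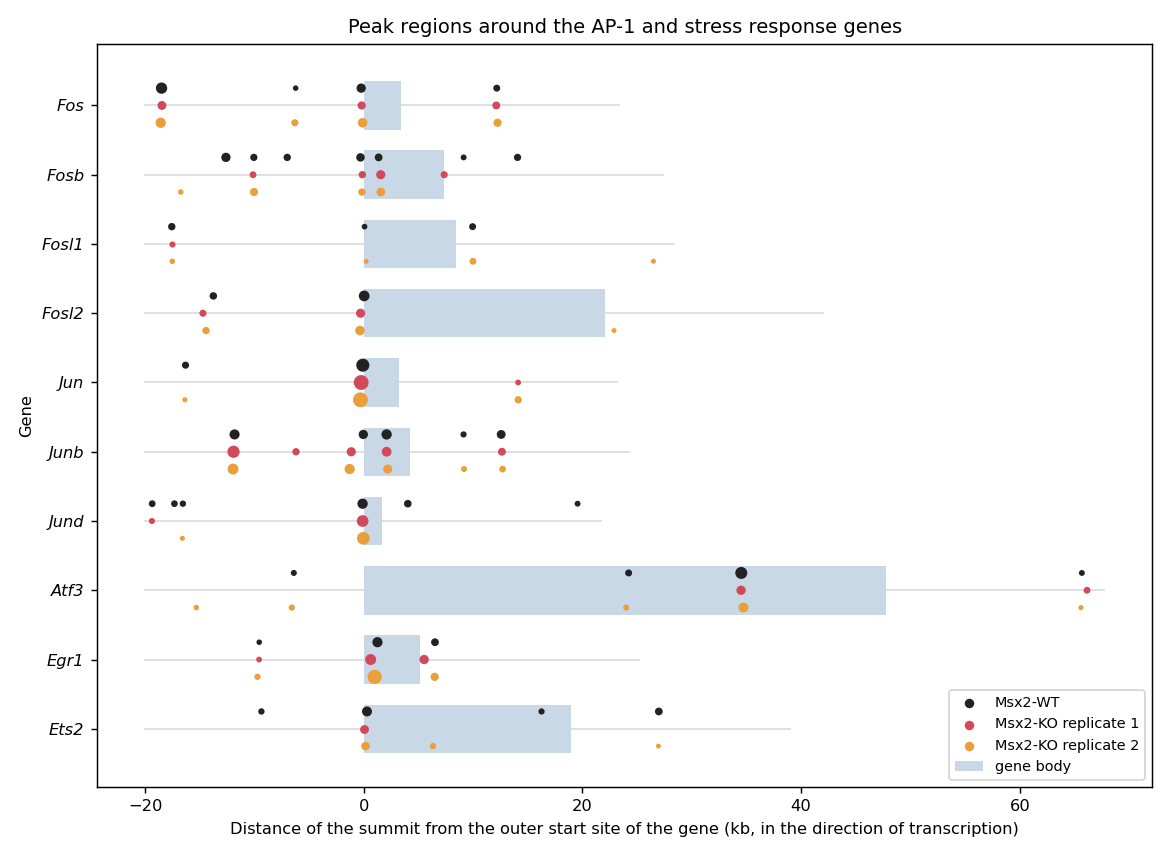
Summits of the peak regions of each gene (rows) by distance from its outer start site in kb, with 3 rows of points per gene for the 3 libraries, point area rising with the tag number over the shared-region median, and the gene body in pale blue. Fos shows columns of 3 points at 18.5 kb upstream, at the promoter and 12.2 kb downstream, while Fosb and Jund show points of WT with none beneath them.

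The 9 regions of WT alone lay at Fosb (4), Jund (3) and Ets2 (2). The highest was 12.6 kb upstream of Fosb in an intron of D830036C21Rik (chr7:19322511-19323041), with 37 tags in WT (26.1 to 51.0) and no listed summit of any strength in either KO library. Of 985 regions over the genome that lay farther than 1500 bases from a start site and had at least as many tags in WT, 13.7% were held by WT alone and 74.2% by all 3 libraries, and 9.34% had no listed summit in either KO library. No base within 150 of this summit was masked as a repeat. Fosb also had 21 tags at 7.0 kb upstream, over the TGAGTCA shown above and again with no summit in either KO library, 20 at 14.1 kb after the start in a UTR of Rtn2, and 11 at 9.1 kb. The last 2 had summits under the threshold in KO2, with 5 and 13 tags.
Fosb 12.6 kb upstream, chr7:19322552-19322752, minus strand: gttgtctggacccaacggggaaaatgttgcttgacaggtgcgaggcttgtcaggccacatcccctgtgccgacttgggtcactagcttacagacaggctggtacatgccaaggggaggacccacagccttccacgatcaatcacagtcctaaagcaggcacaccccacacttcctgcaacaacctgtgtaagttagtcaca

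At Jund the regions of WT alone had 16 tags at 17.3 kb upstream, 23 at the promoter of Iqcn 4.0 kb after the start, and 11 at the promoter of Gm3336. A summit under the threshold was listed at the Iqcn promoter in KO1, with 13 tags, and at the Gm3336 promoter in KO2, with 4. Ets2 had 14 tags at 9.4 kb upstream and 13 in an intron 16.3 kb after its start, neither listed in a KO library. Among regions of the genome farther than 1500 bases from a start site, 25.1% of those with at least 16 tags in WT and 30.2% of those with at least 13 were held by WT alone. Near start sites, where the Iqcn and Gm3336 regions lie, WT alone held 5.38% of regions of any height.

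At the main settings, the single region of both KO libraries without WT lay 14.1 kb after the start of Jun, past its end and in an intron of the noncoding gene Gm12703 (chr4:95037705-95038607). It had 5 tags in KO1 (1.62 to 11.7) and 21 in KO2 (13.0 to 32.1), with −log10 q values of 2.32 and 15.9, and no summit was listed in WT. At a −log10 q of at least 5 the number of such regions was 0, since the peak of KO1 no longer passed. Other settings gave more: 5 when thinned to the shallowest depth in a single draw, and 3 with lists of equal length. With every deposited peak it was 4, as under 50% reciprocal overlap. The number thus depended on the setting. On the other side of Jun, 16.3 kb upstream in an intron of Junos, a region had 19 tags in WT, 7 in KO2 and none listed in KO1. The sequence around the summit at 14.1 kb is shown because, at the main settings, it is the one place on the list with a peak in both KO libraries and none in WT. It held none of the elements searched.
Jun 14.1 kb downstream of the start, chr4:95037990-95038190, minus strand: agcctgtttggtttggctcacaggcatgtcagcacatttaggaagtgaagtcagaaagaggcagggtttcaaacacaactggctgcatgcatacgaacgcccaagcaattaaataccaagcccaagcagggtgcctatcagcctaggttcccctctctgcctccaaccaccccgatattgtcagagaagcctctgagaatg

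Regions that KO1 alone lacked were found at 7 members. Besides that at Jun, Ets2 had 24 and 6 tags in WT and KO2 at 27 kb after its start, over the CArG box shown above, and Atf3 had 18 and 12 at 24.2 kb inside the gene, where TGACTCA lay 10 bases from the summit. Fos had 9 and 20 tags 6.3 kb upstream. The others lay at Fosl1 (2, its promoter included), Junb, Jund and Atf3.

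The elements were then counted over all peaks. TGAGTCA on either strand lay within 150 bases of the summit in 8 of 44 peaks around the 10 genes in WT (18.2%, 95% Wilson interval 9.51 to 32), 3 of 25 in KO1 (12%, 4.17 to 30) and 4 of 36 in KO2 (11.1%, 4.41 to 25.3). Over all peaks of the same libraries the shares were 12.4%, 8.6% and 10.7%, which lay inside these intervals. The CArG box was present in 8 of 44 peaks (18.2%, 9.51 to 32), 4 of 25 (16%, 6.4 to 34.7) and 5 of 36 (13.9%, 6.08 to 28.7), beside 1.28%, 1.37% and 1.32% of all peaks, which lay under the intervals in each library. Within 100 bases of the summit the counts were 7 of 44 (15.9%), 1 of 25 (4%, 0.71 to 19.5) and 3 of 36 (8.33%), beside 0.882%, 0.956% and 0.889%, and in KO1 the share of all peaks then lay inside the interval. Counted over regions, 5 of 48 held a CArG box near the highest summit (10.4%, 4.53 to 22.2), beside 1.32% of all regions, and these belonged to Fos, Fosb, Junb, Egr1 and Ets2. Peaks of the same gene share its neighbourhood, so the intervals are too narrow, and a match to an element is not evidence that a factor was bound.

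**Figure D5:**
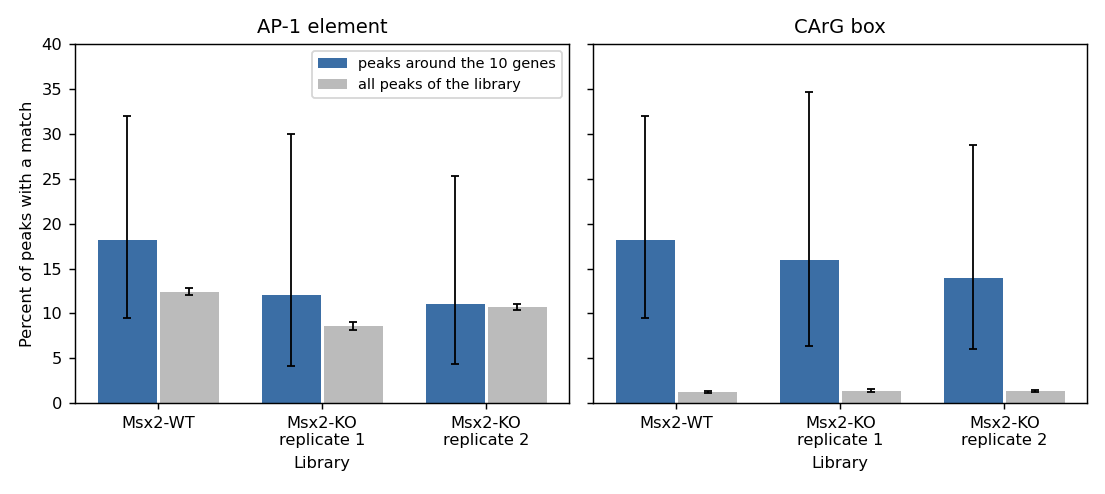
Percent of peaks (vertical axis) with TGAGTCA on either strand (left) or a CArG box (right) within 150 bases of the summit, by library, for peaks around the 10 genes (blue) and all peaks of the library (grey), with 95% Wilson intervals. The grey bars lie inside the blue intervals for TGAGTCA and under them, at 1.28% to 1.37%, for the CArG box.

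Over the 300 bases before the start sites, TGAGTCA was in the promoter of none of the 10 members and in 6.5% of 21820 genes. TGACGTCA was in that of Jund, at bases -214 to -207, and in 2.72% of genes. The CArG box was in those of Fosb and Egr1 and in 2.17% of genes, and Egr1 was 1 of 9 genes with 2 or more. With 500 bases searched, a window chosen after the data were seen because the box of the Fos promoter lies just outside 300, the CArG box was in 3 members, Fos included, and in 3.62% of genes, and Egr1 had 5 matches over its start sites. TGACATCA, also searched after the sequence was seen, was in the promoter of Jun at bases -45 to -38 and in 4.05% of genes. The ratio of observed to expected CpG over 1 kb had a median of 0.773 in the members, 0.606 in all genes and 0.756 in genes with a promoter peak in any library, so the members resembled other open promoters in this respect.

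Wider groups of the pathway were described by counts of promoter peaks. Of 19 other basic leucine zipper factors, which include the Atf, Batf, Creb and Maf genes, 15 had a promoter peak in WT, 15 in KO1 and 16 in KO2. Of 19 annotated immediate early and stress response genes, among them Klf4, Dusp1 and Zfp36, 19, 17 and 19 had one. These counts stand beside the 47%, 37.8% and 53.5% of all genes given above. In neither group was there a gene with a promoter peak in WT and in neither KO library, or in both KO libraries and not in WT.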

How the data were processed

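Peak lists of 3 Omni-ATAC-seq libraries were analysed. As the study's methods describe, the authors trimmed reads, used BWA-MEM to place them on GRCm38 (mm10), removed mitochondrial reads, and ran MACS2 on each library, without a shifting model and with duplicates kept, so tags are not all separate molecules. The MACS2 version is not given in the sources used here. The deposited lists hold, per summit, a fold enrichment over the local background and −log10 p and −log10 q values. They stop at a p-value of 0.01, so summits with a −log10 q above 2 were kept. Because the deposited fold and −log10 p depend on the tag number and the local background, both could be worked back for a summit, with a whole number found for at least 99.93% of summits, and tested on simulated data. The commonest background stood for depth, since no read totals were used. It was 1.74 tags in WT, 0.476 in KO1 and 0.790 in KO2.

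Start sites came from the basic GENCODE M21 annotation. Groups follow the labels. No test was made, and intervals (Poisson for tags, Wilson for shares) cover counting error only. All 10 members were named, and from the gene lists only genes with a promoter peak in WT and neither KO library or the reverse. Genes named as examples of a list fall outside that rule. Cyr61 was not found under this symbol. A further gene list is not reported here. The members and lists were chosen with earlier results of these data known. The alternatives tried comprised a −log10 q of 5 or more, every deposited peak, lists of equal length (18518 peaks), thinning to the shallowest depth, windows of 10 and 50 kb, promoters of 500 and 3000 bases, placing by overlap, 50% reciprocal overlap, other scales, another sequence window and leaving out each KO library. Computation used matplotlib 3.10.9, scipy 1.17.1, pandas 2.3.3 and numpy 2.4.6 under Python 3.11.15.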

Additional observations from a re-analysis of the deposited data

How the results depend on the processing

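The number of members with a promoter peak stayed within 1.5 times its value under every alternative, while counts of peaks and of regions by library moved by more than that in 61 recomputed values and stayed within it in 51. No paired analysis was possible because the labels name no pairs between WT and KO libraries and WT had 1 library. At a −log10 q of at least 5 there were 28 peaks in WT and 14 in KO1, the Jun members had 7 in WT and 5 in KO1, the Fos members had 6 in KO1 and 9 in KO2, and regions numbered 0 in both KO libraries alone, 4 in WT and KO2, 0 in WT and KO1, 0 in KO1 alone and 8 in KO2 alone. The share of peaks with TGAGTCA was then 0% in KO1 and 3.85% in KO2. With every deposited peak the Fos members had 24 peaks in KO2, and the same classes except the second held 4, 3, 1 and 12 regions. With lists of equal length there were 28 peaks in WT and 23 in KO2, with 7 at Jun members in WT and 9 at Fos members in KO2, and the 5 classes held 3, 1, 2, 4 and 3. Thinning to the shallowest depth left 23 peaks in WT (9 at Fos and 6 at Jun members), 25 in KO1 (10 and 9) and 28 in KO2 (10 and 8). WT was thus below both KO libraries in total in this single random draw. Regions then numbered 5 in both KO libraries, 5 in WT alone, 2 in WT and KO2, 0 in WT and KO1 and 5 in KO1 alone.

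Windows of 10 kb gave 9 peaks at Jun members in WT and 6 in KO2, 6 and 9 at Fos members in KO1 and KO2, and 0 regions in both KO libraries, 0 in WT and KO1 and 2 in KO2 alone. Windows of 50 kb gave 77, 46 and 71 peaks, 31, 17 and 31 at Fos and 23, 15 and 19 at Jun members, with 42 regions in all 3 libraries, 2 in both KO libraries, 18 in WT and KO2 and 9 in KO2 alone. Under 50% reciprocal overlap, regions numbered 4 in both KO libraries, 21 in WT alone, 2 in WT and KO1, 5 in KO1 alone and 11 in KO2 alone. Leaving out 1 KO library gave 22 to 30 regions held by every library left, 10 to 20 of WT alone, and of KO without WT 3 without replicate 2 and 6 without replicate 1.

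Of the promoter levels, 8 members were lowest in WT over the background, 2 by the deposited fold, 2 by percentile and 4 over the shared median, and 0, 4, 3 and 3 were highest. The log2 ratio of WT to the KO mean changed sign by the deposited fold at Fosb (0.13), Fosl2 (0.15), Jun (0.27), Atf3 (0.55) and Ets2 (0.36), by percentile at Fos (0.17), Fosl2 (0.28), Atf3 (0.31) and Ets2 (0.32), and over the shared median at Fos (0.15), Fosl2 (0.47), Atf3 (0.69) and Ets2 (0.46). Searching 500 bases for the CArG box, chosen after seeing the data, gave 3 members in place of 2. The cause of these shifts was not tested. The weakest peaks kept had 9 tags in WT, 5 in KO1 and 6 in KO2, and weaker sites could not be compared.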
